A study of Mus musculus with 8 samples.

Results

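Potassium channel genes were taken as the protein-coding genes whose mouse symbol starts with Kcn, followed by letters and a number, and 93 of the 55416 genes in the count files met this rule. Of the 93, 62 had 10 or more counts in at least 2 mice and are described here, and all 62 also passed the expression filter of the test. The other 31 lay at or near the limit of detection: 4 had no count in any mouse, 5 reached 10 counts in 1 mouse, and the highest single count was 19. Just inside the threshold, Kcna5 had 46 counts over all 8 mice, Kcnu1 had 51 and Kcnip1 had 63. Just outside it, Kcng4 had 18 counts over the 8 mice, Kcnk4 had 31, Kcnd2 had 38, Kcnt2 had 49 and Kcnh6 had 50. Among the 62 reported genes, 4 had 10 or more counts in mice of 1 group only, Kcna1 and Kcnu1 in LPS mice and Kcna6 and Kcnj10 in control mice, so that these entered through the group in which they were high.

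The 8 lung libraries came from C57BL/6J females aged 6 to 8 weeks, 3 control mice (1, 2 and 4), 3 LPS mice (1, 6 and 7) and 2 mice given LPS and YW3-56 (2 and 5). Control mice received DMSO through the tail vein and then saline into the peritoneum, and LPS mice received 35 mg/kg LPS, with no DMSO injection described for them. Dual-treated mice received 10 mg/kg YW3-56, an inhibitor of protein arginine deiminases dissolved in DMSO, 30 min before the same dose of LPS, and lung from one side was taken 24 h after LPS. The comparisons ask what high-dose endotoxin does to lung gene expression and how this differs after the inhibitor. As described, LPS mice also differ from both other groups by the lack of DMSO. In comparisons with the LPS group, its part cannot be told apart from that of LPS or YW3-56. Libraries held 19061949 to 20908608 counts, and values below are TMM-normalized CPM, which scale counts to a common library total, listed in the mouse order given above. A gene was called when its Benjamini-Hochberg adjusted p from edgeR was under 0.05 and its fold change was over 2, and log2FC values carry their standard error.

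Potassium channels let potassium leave the cell down its gradient and thereby set the membrane potential, cell volume and, in excitable cells, the length of each electrical signal. Voltage-gated channels open on depolarization, calcium-activated channels open on a calcium signal, inward rectifiers and 2-pore channels carry the resting current, and auxiliary subunits tune the current or the trafficking of the pore. In lung they are known for setting the tone of pulmonary arteries, for driving ion and fluid transport across airway and alveolar epithelium, and for potassium efflux in activated leukocytes.

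All 8 libraries carried lung epithelial RNA. Sftpc, the surfactant gene of alveolar type 2 cells, stood at 24190, 19550 and 24510 CPM in control mice, 16550, 11040 and 8314 in LPS mice and 8520 and 17870 in dual-treated mice. LPS mice 6 and 7 stood apart from the rest. Their summed CPM of 13 squamous epithelium markers, led by Krt13, were 925 and 2375, against 40.0 in LPS mouse 1 and 33.4 to 62.3 in the other groups. Skeletal muscle markers, 13 genes led by Acta1, summed to 567 and 1440 CPM in LPS mice 6 and 7, against 25.3 in LPS mouse 1 and 8.66 to 33.1 in the other groups. Of these lists 9 squamous and 11 skeletal muscle genes rose in LPS versus control, and their part in the results below was not tested. Where holding the LPS group to mouse 1 changed a call described below or moved a called fold change over 1.5 times, that value is given, for which the single mouse is assumed to vary like the other groups.

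In control lung the levels per length spanned a wide range. Kcne2, a small auxiliary subunit of epithelial and cardiac channels, was highest at 23.7 ± 1.05 CPM per kilobase of exon (mean ± SD, n = 3). The inward rectifier Kcnj15 followed at 12.6 ± 0.841 CPM per kilobase. Kcnj2, a strong inward rectifier, had 8.36 ± 1.18 and Kcnk1, a 2-pore leak channel, 6.73 ± 0.345 CPM per kilobase. In LPS lung Kcne4 stood first among these genes at 37.9 ± 6.67 CPM per kilobase, ahead of Kcnk1 at 23.9 ± 1.66, Kcnj15 at 23.6 ± 4.16 and Kcne2 at 12.2 ± 3.92. The sum of all 62 genes was 107.4, 115.3 and 118.2 CPM per kilobase in control mice, 153.3, 126.1 and 140.2 in LPS mice, and 104.8 and 96.3 in dual-treated mice. Per length the LPS sums were the highest, with Kcne4 alone rising from 1.49 ± 0.387 to 37.9 ± 6.67 CPM per kilobase. In CPM without length the sums overlapped, at 513, 559.8 and 576 in control, 622, 522 and 577 in LPS and 520.2 and 499 in dual-treated mice.

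In LPS versus control, 11 of the 62 genes rose (17.7%, against 17.9% of all 18560 tested genes) and 23 fell (37.1%, against 21.3% of all tested genes). The median log2FC of the 62 was -0.74, against -0.01 over all tested genes. In LPS and YW3-56 versus control, 6 genes rose (9.68%, against 5.25% of all tested genes) and 2 fell (3.23%, against 1.90%), with a median log2FC of -0.32 against 0.00 over all tested genes. In LPS and YW3-56 versus LPS, 18 genes were higher (29.0%, against 19.8%) and 9 were lower (14.5%, against 14.0%), with a median log2FC of 0.39 against 0.06. Kcna1, Kcna6, Kcnj10 and Kcnu1, which entered through 1 group, were selected for being high in it. Without these 4, 10 of 58 genes rose (17.2%) and 21 fell (36.2%) in LPS versus control, 6 rose (10.3%) and 2 fell (3.45%) in LPS and YW3-56 versus control, and 17 were higher (29.3%) and 7 lower (12.1%) in LPS and YW3-56 versus LPS, with medians of -0.74, -0.27 and 0.45. Without control mouse 2 the median of the 62 in LPS versus control was -0.47, against 0.00 over all genes. In LPS and YW3-56 versus control, 3 genes were higher without control mouse 1, 3 without control mouse 4 and 2 without dual-treated mouse 2, where 4.18%, 3.83% and 3.05% of all genes were higher. In the same comparison 0 were lower without control mouse 2 or dual-treated mouse 2 (1.23% and 0.798% of all genes), 1 without control mouse 4 (1.39%) and 4 without dual-treated mouse 5 (3.62%). In LPS and YW3-56 versus LPS, 5 were lower without LPS mouse 7, against 12.9% of all genes. The median of the 62 in that comparison was 0.235 without dual-treated mouse 5, against 0.008 over all genes. The comparisons share mice, so their counts are not independent of each other. In whole lung, fewer cells of a type and less RNA per cell cannot be told apart, for any of these counts. With the LPS group held to mouse 1, 8 genes were called higher and 23 lower in LPS versus control, of which 6 and 20 were among those called with all 3 LPS mice, and 16 were higher and 7 lower in LPS and YW3-56 versus LPS, of which 13 and 6 were shared. Of all genes tested with that setting, 15.9% were called higher and 19.7% lower in LPS versus control, and 18.1% higher and 12.3% lower in LPS and YW3-56 versus LPS. The TMM factors were lower in LPS mice (0.81 to 0.93) than in the other mice (1.06 to 1.11). Scaled by library size alone, the median log2FC of all tested genes moved to -0.29 in LPS versus control and to 0.38 in LPS and YW3-56 versus LPS, and the members called became 8 higher and 28 lower, and 25 higher and 5 lower, in these comparisons. With the same scaling 13.3% of all tested genes were called higher and 27.6% lower in LPS versus control, and 27.6% higher and 9.36% lower in LPS and YW3-56 versus LPS.

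**Figure D1:**
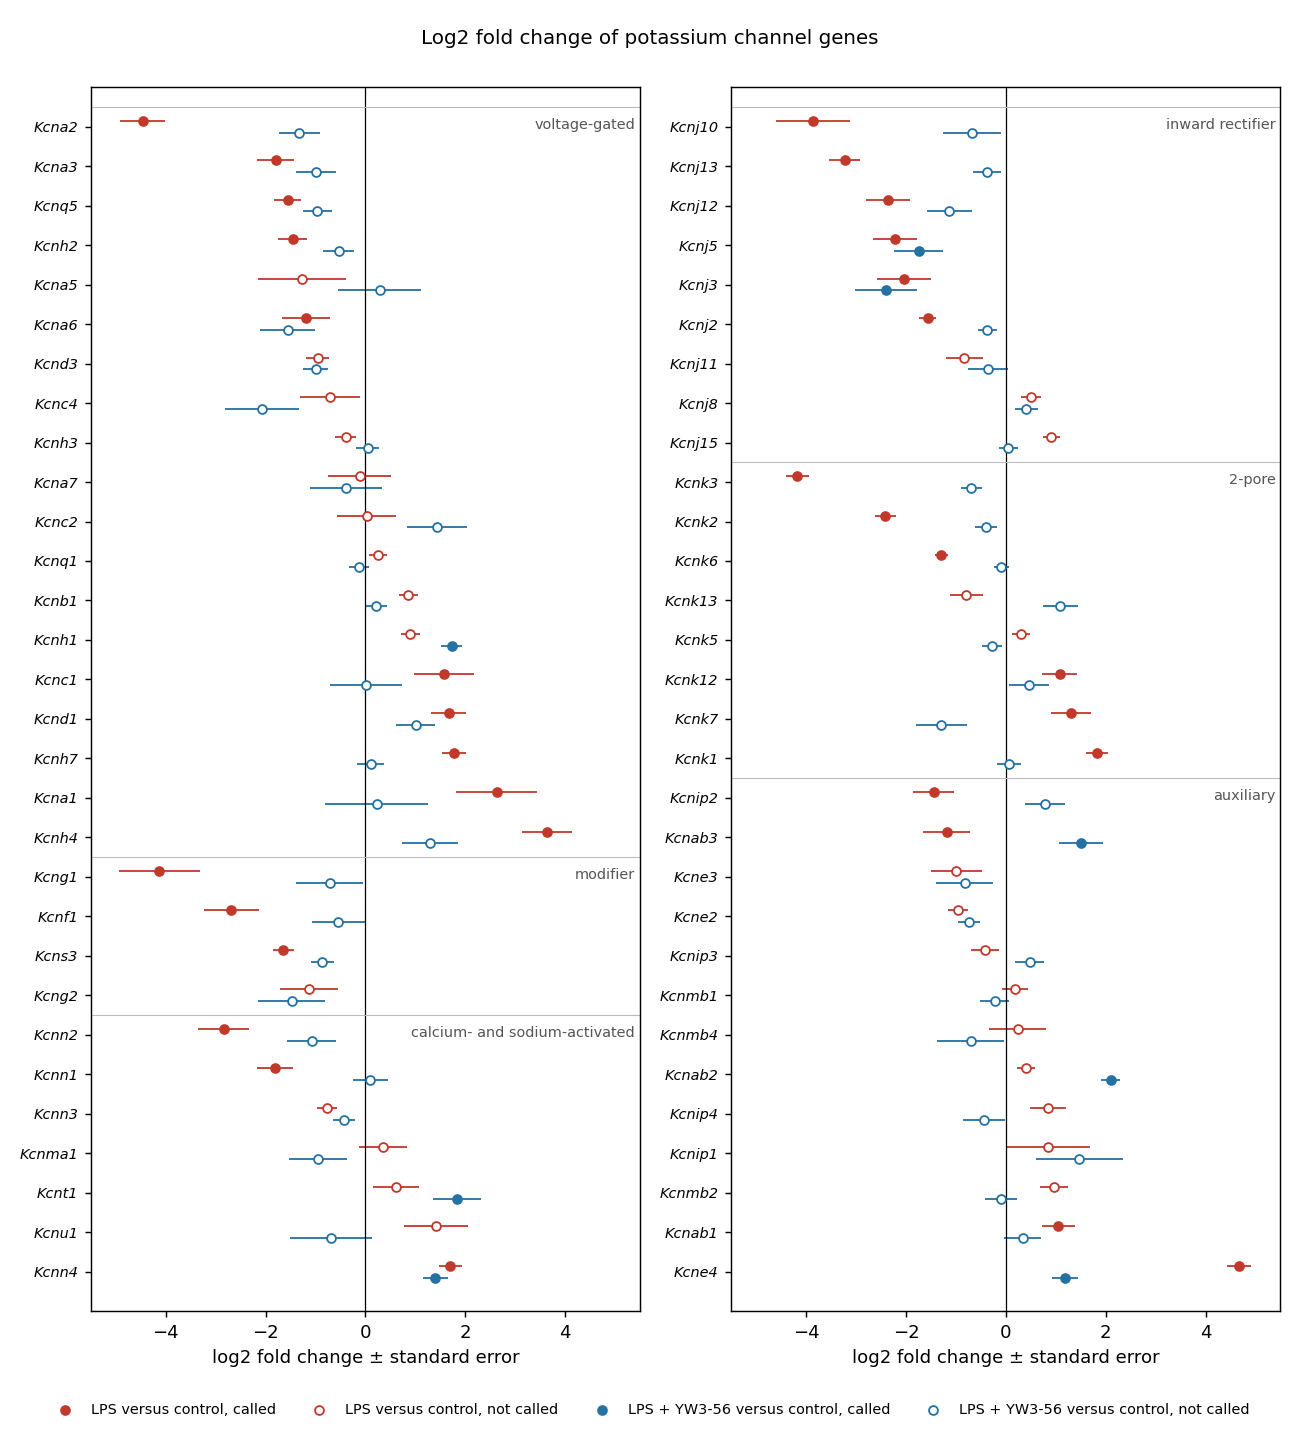
Log2 fold change with its standard error (horizontal axis) of 60 of the 62 potassium channel genes, by family, for LPS versus control (red) and LPS and YW3-56 versus control (blue), with filled points for called genes; the 2 not drawn were both called lower in LPS versus control. Among the genes drawn, 21 filled points lie left of 0 and 11 right of it in LPS versus control, while in LPS and YW3-56 versus control 2 lie left and 6 right.

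The counts by family and gene list that follow stand beside 17.9% higher and 21.3% lower of all tested genes in LPS versus control, and 5.25% and 1.90% in LPS and YW3-56 versus control. Of the 8 reported 2-pore channels, 3 rose (37.5%) and 3 fell (37.5%) in LPS versus control, with a median log2FC of -0.24. Over 17 alternatives 1 to 3 were higher and 3 to 4 lower, with medians of -0.81 (at least 10 counts in every library) to -0.13 (without control mouse 4). Only 1 was higher without control mouse 1 or with LPS mouse 1 alone, where the medians were -0.32 and -0.52, and the median was -0.52 by library size and -0.39 without LPS mouse 6. In LPS and YW3-56 versus control edgeR called none of the 8, where an unadjusted p under 0.05 with the same fold limit gave 1 higher and 1 lower, and DESeq2 called 1 higher. The same gene, Kcnk13, is described below, and 1 was lower without dual-treated mouse 5. Kcnk3, the acid-sensitive leak channel that sets the resting potential of pulmonary artery smooth muscle, stood at 36.9, 47.6 and 44.01 CPM in control mice, 2.13, 1.85 and 3.07 in LPS mice and 21.4 and 31.7 in dual-treated mice. The LPS mice lay far below all others, and the dual-treated mice below the controls. Kcnk3 was 18.2-fold lower with LPS (log2FC -4.18 ± 0.23, adjusted p = 9.57e-07) and 11.3-fold higher in dual-treated than in LPS mice (log2FC 3.49 ± 0.24, adjusted p = 7.08e-06). Against control the dual-treated value was not called (log2FC -0.69 ± 0.21, adjusted p = 0.05604), although without dual-treated mouse 5 it was, at -1.03. Kcnk2, a leak channel opened by membrane stretch and lipids, showed 15.1, 15.6 and 13.9 CPM in control mice, 2.08, 2.65 and 3.62 with LPS and 10.4 and 12.2 with LPS and YW3-56. The 3 groups did not overlap, and the gene fell 5.34-fold with LPS (log2FC -2.41 ± 0.21, adjusted p = 9.63e-06) and was above its LPS level in dual-treated mice (log2FC 2.02 ± 0.23, adjusted p = 7.40e-05). Kcnk6, a channel for potassium efflux in macrophages, was at 28.9, 23.5 and 28.5 CPM in control, 9.54, 11.4 and 12.1 in LPS and 25.3 and 25.4 in dual-treated mice. Its LPS values were the lowest of the 3 groups (log2FC -1.29 ± 0.13, adjusted p = 2.65e-05), and the dual-treated mice lay within the control range and above the LPS mice (log2FC 1.2 ± 0.15, adjusted p = 0.000116).

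Kcnk1 moved the other way, from 17.8, 17.2 and 16.1 CPM in control mice to 65.4, 59.02 and 57.4 in LPS mice, with 23.98 and 11.7 in dual-treated mice. All LPS mice exceeded all others, and the dual-treated mice lay on either side of the controls. This was a 3.56-fold rise with LPS (log2FC 1.83 ± 0.22, adjusted p = 6.05e-05), and the level was 3.4-fold lower in dual-treated than in LPS mice (log2FC -1.77 ± 0.25, adjusted p = 0.000288), or -2.4 on the log2 scale without dual-treated mouse 2. Kcnk12, a close relative of Kcnk13, rose with LPS (log2FC 1.08 ± 0.36, adjusted p = 0.0229) from 2.74, 4.69 and 3.81 to 5.097, 6.12 and 12.5 CPM. LPS mouse 7 was the highest, and without it the log2FC was 0.59 and the call was lost, as it was without control mouse 1 (0.89), without control mouse 4 (1.09), with the LPS group held to mouse 1 (0.45) and with scaling by library size alone (0.81). Kcnk7, a subunit that carries no current alone, had 0.587, 0.891 and 1.01 CPM in control, 1.6, 2.94 and 1.67 in LPS and 0.408 and 0.263 in dual-treated mice. It rose with LPS (log2FC 1.31 ± 0.4, adjusted p = 0.0155), but the call was lost without control mouse 1 (1.12), without LPS mouse 6 (0.98) or with LPS mouse 1 alone (0.95). Dual-treated mice were lower than LPS mice (log2FC -2.61 ± 0.51, adjusted p = 0.001801).

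Kcnk13, a leak channel of microglia and other macrophages, was at 3.47, 4.08 and 5.28 CPM in control mice, 1.42, 3.81 and 2.17 in LPS mice and 9.29 and 8.95 in dual-treated mice. Both dual-treated mice exceeded all others, while LPS mouse 6 fell inside the control range. The gene was 3.69-fold higher in dual-treated than in LPS mice (log2FC 1.88 ± 0.36, adjusted p = 0.00159, or a log2FC of 2.67 with LPS mouse 1 alone). It was not called in LPS versus control (log2FC -0.79 ± 0.33, adjusted p = 0.0595), where the log2FC was -1.24 and called without LPS mouse 6, as it was at -1.58 with LPS mouse 1 alone and -1.06 by library size, nor in LPS and YW3-56 versus control (log2FC 1.09 ± 0.35, adjusted p = 0.0617), where it was called in 8 of 17 alternatives. These were DESeq2, no filter on low counts, at least 10 counts in every library, the compared groups alone, an unadjusted p, the fits without LPS mouse 1 or 6 and LPS mouse 1 alone, with log2FC of 1.07 to 1.1. Of 10 macrophage markers, led by Chil3, 7 rose in dual-treated mice against control and 8 against LPS, and their summed CPM were 1017, 744 and 973 in control, 996, 1079 and 589.7 in LPS and 1680 and 2299 in dual-treated mice. Their part in the Kcnk13 result was not tested. Kcnk5, a channel of transporting epithelia opened by alkaline pH, was not called in any comparison, with 12.6, 12.5 and 13.7 CPM in control, 20.4, 12.5 and 15.1 in LPS and 11.3 and 10 in dual-treated mice.

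Among the 9 inward rectifiers, 6 fell (66.7%, median log2FC -2.04), or 5 of 8 without Kcnj10 (62.5%, median -1.8), and none rose in LPS versus control, where DESeq2 and an unadjusted p under 0.05 with the same fold limit also gave 0 higher. Kcnj15 was called higher without LPS mouse 6, with LPS mouse 1 alone and with no fold limit. Over 17 alternatives 2 (of 5 tested, with at least 10 counts in every library) to 7 were lower, with medians of -2.37 to -0.86. Kcnj2, the rectifier known for holding the resting potential of heart, skeletal muscle and endothelium, stood at 38.3, 49.6 and 49.3 CPM in control mice, 15.6, 12.1 and 18.6 in LPS mice and 37.9 and 32.9 in dual-treated mice. The LPS mice were lowest and the dual-treated mice lay just below the controls. Kcnj2 fell 2.96-fold with LPS (log2FC -1.57 ± 0.17, adjusted p = 3.54e-05) and was 2.29-fold higher in dual-treated than in LPS mice (log2FC 1.2 ± 0.19, adjusted p = 0.000482). Kcnj13, a rectifier of epithelia, fell from 3.32, 3.85 and 4.32 to 0.474, 0.404 and 0.335 CPM with LPS and was at 3.4 and 2.5 in dual-treated mice. Dual-treated mouse 2 lay inside the control range and all LPS mice far below (log2FC -3.23 ± 0.31, adjusted p = 1.50e-05, and log2FC 2.85 ± 0.33, adjusted p = 8.15e-05 for dual-treated against LPS mice). Each LPS mouse had fewer than 10 counts for Kcnj13, so that the size of these differences is not firm. Kcnj12, a close relative of Kcnj2, had 3.03, 3.85 and 2.62 CPM in control, 0.296, 0.577 and 0.948 in LPS and 0.997 and 1.89 in dual-treated mice. Its fall with LPS (log2FC -2.36 ± 0.44, adjusted p = 0.00105) was larger with the LPS group held to mouse 1 (-3.38), and its difference between dual-treated and LPS mice (log2FC 1.23 ± 0.48, adjusted p = 0.0511) was called without LPS mouse 7 (1.7), without dual-treated mouse 2 (1.59) with LPS mouse 1 alone (2.26), by library size (1.54), with no filter on low counts (1.26) or at an unadjusted p. Kcnj10, a glial rectifier named here after its values were seen, had 17, 10 and 14 counts in control mice, 1, 1 and 0 in LPS mice and 9 and 9 in dual-treated mice and passed the count limit through the control mice, so that its difference from LPS mice is not taken as a result. Of 8 pericyte markers, with Pdgfrb the first by level, 5 fell in LPS versus control, and their summed CPM were 616, 712 and 647 in control, 301, 249 and 261 in LPS and 404 and 444 in dual-treated mice. The 10 endothelial markers, led by Cdh5, summed to 3771, 4191 and 4264 CPM in control, 2358, 1994 and 1915 in LPS and 3567 and 3942 in dual-treated mice, with 6 falling in LPS versus control, Cdh5 not among them (log2FC 0.17 ± 0.17, adjusted p = 0.382). Pdgfrb was under the fold limit (log2FC -0.68 ± 0.14, adjusted p = 0.001703). Smooth muscle markers, 9 genes led by Des, summed to 396, 475 and 415 CPM in control, 360.0, 448 and 518 in LPS and 263 and 311 in dual-treated mice. Of these 9, 2 fell in LPS versus control (median log2FC 0.02), 3 fell in LPS and YW3-56 versus control and 3 were lower in LPS and YW3-56 versus LPS. The part of these 3 lists in the results for Kcnj2 and Kcnk3 was not tested.

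Kcnj3 and Kcnj5, which form the G protein-gated channel of the cardiac atrium, were the 2 members that fell in LPS and YW3-56 versus control. Kcnj3 had 1.51, 5.204 and 2.53 CPM in control mice, 0.474, 0.923 and 0.837 in LPS mice and 0.816 and 0.351 in dual-treated mice. Kcnj5 had 3.32, 9.24 and 3.63 CPM in control mice, 1.13, 1.5 and 0.837 in LPS mice and 1.41 and 1.798 in dual-treated mice. For both genes control mouse 2 was highest, and every treated mouse lay below every control. Kcnj3 fell with LPS (log2FC -2.04 ± 0.53, adjusted p = 0.00722) and in dual-treated mice (log2FC -2.39 ± 0.62, adjusted p = 0.0295). Kcnj5 did likewise with LPS (log2FC -2.22 ± 0.45, adjusted p = 0.00168) and in dual-treated mice (log2FC -1.75 ± 0.49, adjusted p = 0.0405). Without control mouse 2 the log2FC with LPS was -1.44 for Kcnj3 and -1.59 for Kcnj5, both still called, and Kcnj3 was at -2.68 with LPS mouse 1 alone, while those of the dual-treated mice were -1.79 and -1.12, and neither was called. The calls in dual-treated mice were also lost without dual-treated mouse 2 (-3.14 and -1.61) or 5 (-1.94 and -1.96), for Kcnj3 without control mouse 4 (-2.54) and for Kcnj5 with the LPS group held to mouse 1 (-1.75). Cardiac muscle markers, 10 genes led by Myh6, summed to 464, 1258 and 720.2 CPM in control, 646, 1003 and 613 in LPS and 267 and 261 in dual-treated mice, with control mouse 2 the highest and the dual-treated mice the lowest. Of these 10 markers 8 fell in LPS and YW3-56 versus control, while 1 rose and 1 fell in LPS versus control, and their part in the Kcnj3 and Kcnj5 results was not tested.

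The other inward rectifiers were not called in LPS versus control. Kcnj15, a rectifier of epithelia, had 76.5, 81.2 and 87.5 CPM in control mice, 180.1, 126 and 155 in LPS mice and 102 and 67.02 in dual-treated mice. All LPS mice exceeded all others, but the 1.88-fold difference from control stayed under the fold limit (log2FC 0.91 ± 0.17, adjusted p = 0.00117), and passed it without LPS mouse 6 (1.04) or with LPS mouse 1 alone (1.14). In dual-treated against LPS mice it was under the limit as well (log2FC -0.86 ± 0.2, adjusted p = 0.00424) and passed it without dual-treated mouse 2 (-1.22) or with LPS mouse 1 alone (-1.1). Of 4 club cell markers, led by Scgb1a1, 1 rose in LPS versus control, 1 fell in LPS and YW3-56 versus control and 3 were lower in LPS and YW3-56 versus LPS. Their summed CPM were 31070, 39300 and 36560 in control, 68310, 58250 and 56520 in LPS and 23950 and 26460 in dual-treated mice. Alveolar type 1 markers, 8 genes led by Ager, summed to 5174, 4890 and 4992 in control, 4156, 3358 and 2460 in LPS and 2641 and 3635 CPM in dual-treated mice, and 8 alveolar type 2 markers, led by Sftpc, to 37640, 31460 and 39530, to 26060, 18230 and 14670 and to 19160 and 30280, with 3 of each list falling in LPS versus control. The part of these 3 epithelial lists in the results for Kcnj15 and Kcnk1 was not tested. Kcnj8, the pore of ATP-sensitive channels in vessels, had 9.53, 9.99 and 11.02 CPM in control, 12.6, 19.3 and 11.6 in LPS and 15.1 and 12.02 in dual-treated mice. Every treated mouse was above every control, and the difference was not called (log2FC 0.51 ± 0.21, adjusted p = 0.0521 with LPS).

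Of the 21 voltage-gated channels, 5 rose (23.8%) and 7 fell (33.3%) in LPS versus control, or 4 and 6 of 19 without Kcna1 and Kcna6 (21.1% and 31.6%), with a median log2FC of -0.39. Over 17 alternatives 2 to 7 were higher and 5 to 8 lower, with medians of -1.24 (LPS mouse 1 alone) to -0.24 (without control mouse 1). The median was -1.09 without LPS mouse 7, -0.72 with at least 10 counts in every library and -0.67 by library size. Kcna2, a delayed rectifier best known from axons, showed the lowest log2FC of all 62 genes in this comparison, with 14.6, 15.6 and 15.7 CPM in control mice, 0.533, 0.866 and 0.669 in LPS mice and 2.72 and 9.52 in dual-treated mice. The LPS mice were all under 1 CPM, and the dual-treated mice lay between the groups and differed from each other. Kcna2 fell 22.2-fold with LPS (log2FC -4.46 ± 0.46, adjusted p = 2.36e-05). Dual-treated mice were above LPS mice (log2FC 3.14 ± 0.48, adjusted p = 0.000435), at 1.94 without dual-treated mouse 5 and 3.75 without mouse 2. Against control the dual-treated value was not called (log2FC -1.32 ± 0.42, adjusted p = 0.0615), but was in 4 of 16 alternatives: by DESeq2 (-1.34), with no filter on low counts or an unadjusted p (-1.32 for each) and without dual-treated mouse 5 (-2.52). Kcna3, the main voltage-gated channel of T lymphocytes, fell from 3.27, 2.34 and 4.04 to 1.07, 1.096 and 0.614 CPM with LPS (log2FC -1.79 ± 0.37, adjusted p = 0.00202) and stood at 1.18 and 2.06 in dual-treated mice. The dual-treated mice lay between the ranges of the other groups. Of 10 markers of T and NK cells, led by Lck, 3 fell with LPS, and their summed CPM were 30.8, 22.7 and 21.6 in control, 34.4, 28.1 and 17.5 in LPS and 16.4 and 31.9 in dual-treated mice. Their part in the Kcna3 result was not tested.

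Kcnq5, a channel that restrains vascular smooth muscle contraction, had 4.45, 6.66 and 6.34 CPM in control, 1.72, 1.79 and 2.398 in LPS and 2.49 and 3.46 in dual-treated mice. Its dual-treated values lay between those of the other groups (log2FC -1.56 ± 0.27, adjusted p = 0.000614 with LPS). Kcnh2, which ends the cardiac action potential, had 8.12, 14.3 and 10.8 CPM in control, 3.79, 3.69 and 4.57 in LPS and 5.26 and 10 in dual-treated mice. It fell with LPS (log2FC -1.46 ± 0.29, adjusted p = 0.00157), with control mouse 2 again the highest of the controls. In dual-treated against LPS mice it was under the fold limit (log2FC 0.92 ± 0.32, adjusted p = 0.0301) and passed it without LPS mouse 7 (1.02) or dual-treated mouse 2 (1.29) or by library size (1.24).

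Kcnh4, a slowly gating channel otherwise known from brain, rose with LPS from 0.733, 0.422 and 0.459 to 9.96, 7.097 and 3.12 CPM and was at 1.77 and 0.877 in dual-treated mice. The LPS mice spread over a wide range with mouse 7 the lowest, yet all exceeded the other groups. The rise was 12.5-fold (log2FC 3.63 ± 0.5, adjusted p = 0.000156), and dual-treated mice were 5.08-fold lower than LPS mice (log2FC -2.34 ± 0.53, adjusted p = 0.00411), or -2.95 on the log2 scale without dual-treated mouse 2. Kcnh7, a relative of Kcnh2, had 1.96, 2.67 and 2.21 CPM in control, 6.99, 7.96 and 8.48 in LPS and 2.99 and 1.93 in dual-treated mice. All LPS mice were above all others (log2FC 1.77 ± 0.24, adjusted p = 0.000134 with LPS, and log2FC -1.67 ± 0.27, adjusted p = 0.000667 for dual-treated against LPS mice). Its exons share 2886 bases, 18.6% of their length, with Gca on the opposite strand, and the strand setting of the counts is not stated. Gca itself was at 10.4, 10.4 and 11.6 CPM in control, 11.7, 8.88 and 9.26 in LPS and 9.02 and 12.2 in dual-treated mice, with overlapping groups. Kcnd1, a channel of the transient outward current, rose with LPS from 0.684, 0.469 and 0.643 to 1.897, 1.56 and 2.29 CPM (log2FC 1.67 ± 0.35, adjusted p = 0.00223) and stood between, at 1.41 and 1.01, in dual-treated mice.

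Kcnh1, a relative of Kcnh4, was the 1 voltage-gated member that rose in LPS and YW3-56 versus control. It had 3.71, 3.56 and 2.89 CPM in control mice, 6.76, 6.12 and 6.13 in LPS mice and 9.52 and 12.9 in dual-treated mice. The 3 groups were ordered without overlap, lowest in control. The dual-treated mice were 3.31-fold above control (log2FC 1.73 ± 0.21, adjusted p = 0.000825), while the 1.87-fold difference with LPS stayed under the fold limit (log2FC 0.9 ± 0.2, adjusted p = 0.00271). Against LPS mice the dual-treated value was under it too (log2FC 0.83 ± 0.21, adjusted p = 0.00731) and passed it without dual-treated mouse 2, at 1.0, or by library size, at 1.15. Kcnq1, the channel that pairs with Kcne subunits in epithelia and heart, was not called in any comparison and had 12.1, 13.1 and 18.2 CPM in control, 15.6, 18.7 and 17.7 in LPS and 11.6 and 14.8 in dual-treated mice. Kcna5, known from pulmonary artery smooth muscle, was not called in any comparison and had 6, 10 and 5 counts in control mice, 0, 4 and 3 in LPS mice and 14 and 4 in dual-treated mice. Kcnc1, under 1 CPM on average and named after its values were seen, was called higher in LPS versus control. It lost this call without control mouse 1 (1.28) or 2 (1.37) or dual-treated mouse 2 or 5 (1.56 for each), by DESeq2 (1.63), with no filter on low counts (1.54) and by library size (1.31), and was at 2.22 without control mouse 4, against 1.57 with all mice. Kcna1 and Kcna6 passed the count limit through LPS and control mice respectively, so that their calls are not taken as results.

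Modifier subunits carry no current alone and change the gating of the channels they join. Of the 4 reported, 3 fell (median log2FC -2.16) and 0 rose in LPS versus control, by edgeR, by DESeq2 and at an unadjusted p under 0.05 with the same fold limit. All 4 were lower without control mouse 1, and 1 was tested, and lower, with at least 10 counts in every library. Kcns3, named after its values were seen, had 15.5, 16.5 and 16.9 CPM in control mice, 5.99, 4.96 and 4.68 in LPS mice and 6.57 and 11.3 in dual-treated mice. The groups did not overlap and the dual-treated mice lay between (log2FC -1.64 ± 0.21, adjusted p = 0.000108 with LPS). Against control the dual-treated value was under the fold limit (log2FC -0.86 ± 0.23, adjusted p = 0.0349), and past it without dual-treated mouse 5 (-1.34). Against LPS mice it was at 0.78 ± 0.23, and past the limit without dual-treated mouse 2 (1.09) or by library size (1.11). Kcnf1 fell from 2.2, 2.297 and 1.56 to 0.474, 0.404 and 0.0558 CPM with LPS (log2FC -2.69 ± 0.56, adjusted p = 0.00203, or -2.07 with LPS mouse 1 alone) and was at 1.72 and 1.05 in dual-treated mice. LPS mouse 7 was the lowest, with 1 count. The difference between dual-treated and LPS mice (log2FC 2.15 ± 0.6, adjusted p = 0.0124) was no longer called without dual-treated mouse 2 (1.73) or with LPS mouse 1 alone (1.53). Kcng1, also named after its values were seen, had 38, 34 and 41 counts in control mice, 2, 1 and 2 in LPS mice and 5 and 44 in dual-treated mice. Dual-treated mouse 5 was at the control level and mouse 2 near the LPS level, so that the log2FC of dual-treated against LPS mice was 3.41 with both, 4.22 without mouse 2 and 1.17, not called, without mouse 5, and the call was also lost with LPS mouse 1 alone (3.12). Against control it was -0.71 with both and -2.97, called, without mouse 5.

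Among the 7 calcium- and sodium-activated channels, 1 rose (14.3%) and 2 fell (28.6%) in LPS versus control, with a median log2FC of 0.36, or -0.21 without Kcnu1. The median was -0.23 without LPS mouse 6, -0.32 without LPS mouse 7, -0.14 with LPS mouse 1 alone and 0.08 by library size. Over 17 alternatives 1 to 2 (without control mouse 4) were higher and 0 (of 2 tested, with at least 10 counts in every library) to 3 lower. Kcnn4, the calcium-activated channel of leukocytes, red cells and epithelia, had 3.86, 5.02 and 6.25 CPM in control mice, 15.8, 19.1 and 14.3 in LPS mice and 16.1 and 10.5 in dual-treated mice. Every treated mouse exceeded every control, and the treated groups overlapped. Kcnn4 rose 3.25-fold with LPS (log2FC 1.7 ± 0.23, adjusted p = 0.0001496) and 2.63-fold in dual-treated mice (log2FC 1.4 ± 0.25, adjusted p = 0.00599), the latter call being lost without dual-treated mouse 2 (1.03). Neutrophil markers, 11 genes led by S100a9, counted 10 that rose in LPS versus control and 8 in LPS and YW3-56 versus control. Their summed CPM were 348, 276 and 198 in control, 2804, 3685 and 2529 in LPS and 2097 and 2594 in dual-treated mice. Erythroid markers, 6 genes led by Hbb-bs, summed to 1733, 3906 and 2784 CPM in control, 3285, 1884 and 1468 in LPS and 426 and 381 in dual-treated mice, with 0 called in LPS versus control by edgeR, by DESeq2 or at an unadjusted p under 0.05 with the same fold limit, and 5 falling in LPS and YW3-56 versus control. B cell markers, 6 genes led by Ighm, summed to 99.2, 103 and 98.9 CPM in control, 108, 135 and 98.2 in LPS and 1369 and 97.5 in dual-treated mice, with dual-treated mouse 2 far above the rest. Of these 6, 2 fell in LPS versus control and 1 rose in LPS and YW3-56 versus control. The part of these 3 lists in the Kcnn4 result was not tested. Kcnn1, a small-conductance channel, fell from 1.51, 2.297 and 1.88 to 0.415, 0.462 and 0.725 CPM with LPS (log2FC -1.81 ± 0.35, adjusted p = 0.00142) and was at 1.904 and 2.15 in dual-treated mice. Its dual-treated values lay among those of the controls (log2FC 1.91 ± 0.38, adjusted p = 0.00205 against LPS mice). Kcnn3, of the same kind, had 8.26, 7.08 and 8.31 CPM in control, 5.16, 4.56 and 4.18 in LPS and 4.71 and 6.97 in dual-treated mice, a difference with LPS under the fold limit (log2FC -0.77 ± 0.2, adjusted p = 0.00808) and past it by library size (-1.06). Kcnt1, the sodium-activated channel, was at 0.44, 0.985 and 0.413 CPM in control, 0.889, 1.33 and 0.614 in LPS and 2.09 and 2.33 in dual-treated mice. The dual-treated mice were above all others and it rose against control (log2FC 1.84 ± 0.48, adjusted p = 0.0305), but the call was lost without control mouse 1 (1.65) or 4 (1.59) or without dual-treated mouse 2 (1.88) or 5 (1.73). Kcnn2, a small-conductance channel named after its values were seen, was the other gene of this family that fell with LPS, with 21, 24 and 27 counts in control mice, 2, 3 and 3 in LPS mice and 7 and 17 in dual-treated mice.

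The large-conductance calcium-activated channel was low in whole lung. Kcnma1, its pore, had 0.587, 0.563 and 0.551 CPM in control, 0.711, 0.462 and 1.004 in LPS and 0.408 and 0.175 in dual-treated mice, with LPS mouse 7 the highest. Kcnmb1, its smooth muscle subunit, had 2.59, 2.91 and 2.66 CPM in control, 2.49, 3.46 and 3.35 in LPS and 2.81 and 1.84 in dual-treated mice. Neither gene was called in any comparison with all mice, and Kcnma1 was called lower in dual-treated than in LPS mice without LPS mouse 6 (-1.55, against -1.3 with all) or at an unadjusted p. Kcnmb2, a subunit that inactivates this channel, had 2.54, 2.81 and 2.21 CPM in control, 3.32, 4.85 and 6.64 in LPS and 2.54 and 2.19 in dual-treated mice. LPS mouse 7 was the highest and LPS mouse 1 the lowest of the LPS group. Dual-treated mice were lower than LPS mice (log2FC -1.06 ± 0.32, adjusted p = 0.0182), but not without LPS mouse 7 (-0.8), without dual-treated mouse 5 (-0.98), with LPS mouse 1 alone (-0.49) or by library size (-0.75). In LPS versus control it was under the fold limit (log2FC 0.97 ± 0.28, adjusted p = 0.0126) and past it without control mouse 2 (1.05) or LPS mouse 1 (1.19) and by DESeq2 or RLE scaling (1.01 for each).

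Of the 13 auxiliary subunits, 2 rose (15.4%) and 2 fell (15.4%) in LPS versus control, with a median log2FC of 0.23. By library size 1 was higher and 3 lower and the median was -0.07, while DESeq2, RLE scaling and the fit without control mouse 2 each gave 3 higher and 1 lower. Without control mouse 4 and with LPS mouse 1 alone 1 was higher and 1 lower, 1 was lower without LPS mouse 1 or either dual-treated mouse, and over 17 alternatives the median was -0.07 to 0.61. With no filter on low counts 1 was higher and 1 lower, and with at least 10 counts in every library 2 of 8 tested were higher and 0 lower. Over the 17 alternatives 1 to 3 were higher and 0 to 3 lower. The median was 0.04 without LPS mouse 1 and 0.38 without LPS mouse 7, and 0.36 without control mouse 1. Of the same 13, 3 rose (23.1%) in LPS and YW3-56 versus control, with a median of 0.34. There 1 was higher without control mouse 1 or 4 or dual-treated mouse 2, the last with a median of -0.06, and the median was 0.22 without control mouse 4 and 0.12 without LPS mouse 1. Kcne4, a small subunit that inhibits several voltage-gated channels, had the highest log2FC of all 62 genes in LPS versus control. It stood at 3.76, 5.06 and 3.03 CPM in control mice, 121, 87.1 and 94.03 in LPS mice and 11.2 and 6.89 in dual-treated mice. The 3 groups did not overlap, and the dual-treated mice lay much nearer the controls. Kcne4 rose 25.4-fold with LPS (log2FC 4.67 ± 0.25, adjusted p = 8.53e-07) and was 11.2-fold lower in dual-treated than in LPS mice (log2FC -3.48 ± 0.27, adjusted p = 1.13e-05). The 2.28-fold rise in dual-treated mice against control (log2FC 1.19 ± 0.26, adjusted p = 0.0148) was not called without control mouse 1 (1.15), control mouse 4 (1.0) or dual-treated mouse 2 (0.77). Kcne2 had 41.4, 45.1 and 44.05 CPM in control, 23.8, 14.7 and 28.8 in LPS and 25.5 and 26.5 in dual-treated mice. Every treated mouse was below every control, while the difference with LPS was under the fold limit (log2FC -0.95 ± 0.2, adjusted p = 0.00229) and past it without LPS mouse 7 (-1.17) or by library size (-1.24). Kcne3, a partner of Kcnq1 in epithelia, had 1.81, 2.67 and 2.16 CPM in control, 0.356, 2.08 and 0.892 in LPS and 1.31 and 1.18 in dual-treated mice. LPS mouse 6 lay among the controls, and the difference was called without it (-1.8) or with LPS mouse 1 alone (-2.61, against -0.99 ± 0.51 with all mice, adjusted p = 0.113).

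Kcnab2, a cytoplasmic subunit of the Kcna channels with an oxidoreductase fold, had the highest log2FC of the 62 genes in LPS and YW3-56 versus control. It was at 7.43, 8.06 and 8.41 CPM in control mice, 9.42, 13.7 and 8.64 in LPS mice and 34.9 and 33.2 in dual-treated mice. Both dual-treated mice stood far above all others, and the LPS mice slightly above the controls. Dual-treated mice were 4.28-fold above control (log2FC 2.1 ± 0.19, adjusted p = 0.000184) and 3.22-fold above LPS mice (log2FC 1.69 ± 0.19, adjusted p = 7.58e-05), and the gene was not called in LPS versus control (log2FC 0.41 ± 0.18, adjusted p = 0.0674). The macrophage markers described above were highest in the same mice, and their part was not tested here either. Kcnab3, a relative with a mean under 1 CPM that is named after its values were seen, had 0.489, 0.844 and 0.781 CPM in control, 0.356, 0.173 and 0.3904 in LPS and 1.59 and 2.46 in dual-treated mice. It fell with LPS (log2FC -1.19 ± 0.48, adjusted p = 0.0498) and rose in dual-treated mice against control (log2FC 1.51 ± 0.44, adjusted p = 0.0462), and the calls were lost in 11 and 7 of 16 alternatives, among them 7 and 5 of the 8 fits that left out 1 mouse, with log2FC of -0.9 without LPS mouse 6, -0.97 with LPS mouse 1 alone (also not called) and 1.13 without dual-treated mouse 5. Kcnip2, a calcium-binding partner of Kcnd channels, had 1.42, 1.92 and 2.53 CPM in control, 1.01, 0.692 and 0.446 in LPS and 4.22 and 2.5 in dual-treated mice. It fell with LPS (log2FC -1.45 ± 0.4, adjusted p = 0.0103), not called with LPS mouse 1 alone (-0.95), and dual-treated mice were above LPS mice (log2FC 2.23 ± 0.43, adjusted p = 0.00171). Kcnip4, of the same kind, was lower in dual-treated than in LPS mice (log2FC -1.28 ± 0.42, adjusted p = 0.0254), a call lost without LPS mouse 1 (-1.23), LPS mouse 7 (-1.06) or dual-treated mouse 2 (-1.05), with the compared groups alone (-1.3) and by library size (-0.96). In LPS versus control Kcnip4 was at 0.85 ± 0.36, not called, and at 1.11, called, without LPS mouse 6. Kcnab1, named after its values were seen, rose with LPS (log2FC 1.05 ± 0.33, adjusted p = 0.0181) from 0.782, 0.797 and 0.643 to 1.66, 1.67 and 1.28 CPM, and lost the call without control mouse 4 (0.96) or LPS mouse 1 (1.0) or 6 (0.99), with LPS mouse 1 alone (1.16), with no filter on low counts (1.02) and by library size (0.76).

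**Figure D2:**
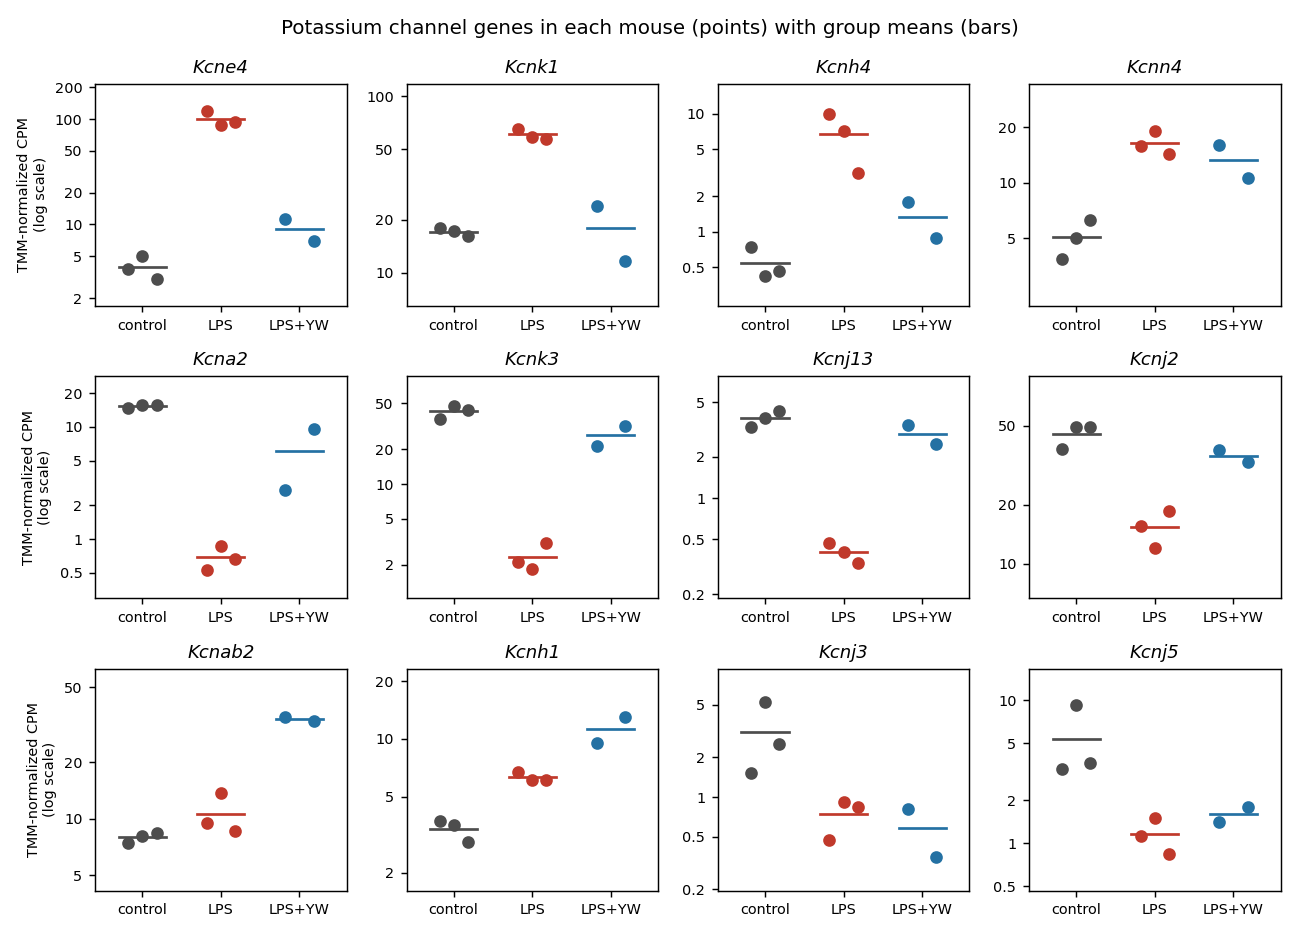
TMM-normalized CPM (log axis) of 12 potassium channel genes in each mouse (points) with the group mean (bars), for control, LPS and LPS plus YW3-56. Kcne4, Kcnk1 and Kcnh4 are highest in all 3 LPS mice, Kcna2, Kcnk3, Kcnj13 and Kcnj2 are lowest there, and Kcnab2 and Kcnh1 are highest in both dual-treated mice.

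Some members lie side by side in the genome. Kcna3 (chromosome 3, 106943485 to 106945386, GRCm39) and Kcna2 (107008237 to 107022321) are 62.9 kb apart, and both fell with LPS. Kcna1 and Kcna6, 61.9 kb apart on chromosome 6, were called in opposite directions, higher and lower with LPS, but each passed the count limit through the group in which it was high. The Kcna6 call was lost in 11 of 16 alternatives, among them DESeq2, RLE scaling and LPS mouse 1 alone (-0.93, against -1.2 with all mice). For Kcna1 the call was lost in 1 of 16, with LPS mouse 1 alone (2.43, against 2.62 with all mice). Kcnmb1 lies inside Kcnip1 on chromosome 11, and no exon base is shared between them in the annotation. Of the 62 genes, 23 share exon bases with another counted gene on the opposite strand, and for 10 of them the shared part is over 10% of the exon length. Among the genes described above these include Kcnk2 (14.5%), Kcnj13 (10.8%), Kcnn1 (11.3%), Kcna6 (39.7%), Kcnab3 (15.99%, with Kcnab3os) and Kcnq1 (16.3%, with Kcnq1ot1). Since the strand setting of the counts is not stated, how reads over the shared bases were assigned is not known. The part of the Kcnj13 exons is shared with Gigyf2, which had 75.97, 65.2 and 63.7 CPM in control, 37.2, 35.2 and 39.8 in LPS and 62.9 and 59.4 in dual-treated mice.

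Genes that work with these channels are given beside all tested genes, of which 17.9% were higher and 21.3% lower in LPS versus control, 5.25% and 1.90% in LPS and YW3-56 versus control, and 19.8% and 14.0% in LPS and YW3-56 versus LPS. One list held sodium-potassium and proton-potassium pumps, Fxyd regulators and cation-chloride cotransporters. Of its 19 tested genes, 2 rose and 6 fell in LPS versus control, where DESeq2 called 4 higher and 6 lower. In LPS and YW3-56 versus control 2 rose and 2 fell, and 5 were higher and 2 lower in LPS and YW3-56 versus LPS. The medians in these comparisons were 0.03, -0.19 and 0.28. Of 10 tested channel partners and regulators, 2 rose and 2 fell in LPS versus control, 0 were called in LPS and YW3-56 versus control by edgeR, by DESeq2 or at an unadjusted p under 0.05 with the same fold limit, and 2 were higher and 3 lower in LPS and YW3-56 versus LPS, with medians of -0.01, -0.14 and -0.4. Lrrc26 and Sgk1, both from this list, met no naming rule and do not stand for the list. Lrrc26, a subunit of the Kcnma1 channel in secretory epithelium, fell from 19.99, 25.98 and 27.98 to 1.66, 1.85 and 3.46 CPM with LPS (log2FC -3.4 ± 0.28, adjusted p = 6.08e-06) and was at 11.5 and 14.1 in dual-treated mice. Sgk1, a kinase that raises channel and pump activity in epithelia, rose from 114, 108 and 115 to 787, 569 and 588 CPM (log2FC 2.52 ± 0.18, adjusted p = 2.69e-06) and was at 203 and 140.1 in dual-treated mice. Of 9 tested related cation channels, 3 rose and 3 fell in LPS versus control, 1 rose in LPS and YW3-56 versus control, and 2 were higher and 2 lower in LPS and YW3-56 versus LPS, with medians of -0.42, -0.05 and -0.2.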

How the data were processed

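Lung RNA of 8 mice was sequenced by the authors. Reads were checked with FastQC 0.11.9, trimmed with trim_galore, aligned to GRCm39 with Hisat2 2.2.1 and counted per gene with featureCounts 2.0.1, and the authors deposited raw counts for each mouse. The annotation release, strand and multimapping settings are not stated. Symbols, positions and exon lengths came from GENCODE M39. All 8 libraries were fitted together in edgeR 4.0.16 (TMM, filterByExpr, quasi-likelihood F test, Benjamini-Hochberg over 18560 genes) under R 4.3.3, with the mouse as replicate. Standard errors came from the log2FC and its F statistic. Named genes were, in each comparison, the 8 highest and 8 lowest log2FC among called members with a mean of at least 1 CPM, the 5 highest per length in control, and 23 channels with known roles in lung or leukocytes, and values of some of these are not given here. The members and lists were chosen with earlier results of these data known. The procedure was tested on simulated data. Alternatives were DESeq2 1.42.0, library size or RLE scaling, other filters and thresholds, the compared groups only, each mouse left out, and the LPS group held to mouse 1.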

Additional observations from a re-analysis of the deposited data

How the results depend on the processing

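No called value changed sign under any alternative run: 26 of 34 calls in LPS versus control, 2 of 8 in LPS and YW3-56 versus control and 18 of 27 in LPS and YW3-56 versus LPS were kept under every alternative in which the gene was still tested, with the 4 members that entered through 1 group included. With at least 10 counts in every library, 36 members were tested and 7 were higher and 11 lower in LPS versus control (median log2FC -0.42, against 15.1% higher and 19.1% lower of all 14425 genes tested), 5 were higher and 1 lower in LPS and YW3-56 versus control (5.37% and 2.13% of all), and 8 were higher and 5 lower in LPS and YW3-56 versus LPS (17.6% and 11.7% of all). By library size alone the median was -1.01 in LPS versus control and 0.71 in LPS and YW3-56 versus LPS, where 5 were lower. In LPS and YW3-56 versus control, DESeq2 called 5 lower (2.55% of all genes), 4 were lower with no filter on low counts (1.51%) or no fold limit (7.02%), an unadjusted p gave 10 higher and 7 lower (7.04% and 3.43%), and with LPS mouse 1 alone 1 was lower (2.03%). Leaving out each mouse gave 2 to 7 higher and 0 to 4 lower in LPS and YW3-56 versus control, 5 to 9 lower in LPS and YW3-56 versus LPS, and a median of -0.8 to -0.47 in LPS versus control. The cause was not tested. A group left with 1 mouse was assumed to vary like the others. No paired analysis was possible because any pair of groups shares at most 1 mouse number and no label marks pairs. Genes under about 10 counts allow no firm value, and the dual-treated group has 2 mice.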
